A study of Mus musculus with 6 samples.

Results

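The genes described here are 9 matrix metalloproteinases and metalloproteinase inhibitors, chosen by symbol. They are the gelatinases Mmp2 and Mmp9, the stromelysin Mmp3, the collagenase Mmp13, the membrane-anchored enzyme Mmp14, the secreted inhibitors Timp1, Timp2 and Timp3, and the membrane-anchored inhibitor Reck. All 9 had a row among the 23227 genes of the exonic tables and the 23231 genes of the intronic tables. Total RNA came from immortalised mouse lines that each grew from 1 clone, named as mesenchymal stem cells in some labels and as fibroblasts in others. Dicer WT cells carry floxed Dicer alleles (Dicer f/f) and Dicer KO cells lack Dicer (Dicer -/-). In the other 4 groups, Dicer WT cells had been given either the empty vector or one that carries Pbx3, Sox9 or Tead4. Since each genotype is 1 clone, genotype and clone cannot be told apart, and how the floxed alleles were recombined is not given in the sources used here. Each group mean was resolved into 2 libraries (12 in all), and the labels do not say whether these were separate cultures. In bulk RNA, fewer cells of a type and less RNA per cell cannot be told apart.

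Matrix metalloproteinases are zinc enzymes, made as inactive proenzymes, that cut collagens and other matrix proteins around the cell. Mmp14 at the cell surface activates the proenzyme of Mmp2 with Timp2 as the bridging molecule, while Timp1 and Timp3 block active enzymes and Reck restrains Mmp2, Mmp9 and Mmp14 at the membrane. Stromal cells are a main source of Mmp2, Mmp14 and the Timps, and leukocytes and osteoclasts are known sources of Mmp9. Dicer cuts microRNA precursors into mature microRNAs, which pair through their seed, bases 2 to 8, with sites in messenger RNA. Several microRNAs are known in the literature as regulators of these genes, among them miR-21 for Reck and Timp3.

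As a sum, stromal markers were abundant and markers of other cells were not. The summed exonic level of 10 mesenchymal stromal markers was 3955 to 8676 RPM (reads per 1000000 reads of a library) over the 12 libraries, at 3955 to 4485 in Dicer KO and 5876 to 5965 in Dicer WT, and Thy1 was at 0 in all of them. Single stromal markers differed widely, with Vim (2078 to 4651 RPM) and Col1a2 (792 to 3120) the highest. Nt5e was at 3.51 to 16.1 RPM and Ly6a at 2.85 to 66.8. Col1a1, Col1a2 and Ly6a fell in Dicer KO cells (3 of 9 stromal markers tested, where 7.36% of all genes fell). Of 7 leukocyte and macrophage markers, summed at 5.96 to 13.8 RPM with the highest pair in Tead4 cells, Emr1 was at 0 and Ptprc had 1 read in all 12 libraries together. Whether genes at 0, such as Thy1 and Emr1, were silent or not counted was not tested. Cd14, at 3.57 to 12.1 RPM, and Cd68, at 1.27 to 2.80 RPM, were read in every library. The 2 osteoclast markers in the tables stayed at or below 0.233 RPM, the endothelial markers at or below 0.640 and the epithelial markers at or below 0.324. As a check of the labels, exonic reads of Pbx3 rose by 7.04 ± 0.21 on the log2 scale in Pbx3 cells and those of Tead4 by 7.17 ± 0.18 in Tead4 cells (limma adjusted p = 0.0013 and 0.000284). Sox9 stood at 5.59 and 14.4 RPM in vector and 23.3 and 21.6 in Sox9 cells, a difference of 1.29 ± 0.39 that did not pass (limma adjusted p = 0.272). Dicer1 had 64.3 and 65.1 RPM in Dicer WT and 43.4 and 49.9 in Dicer KO, and reads over the whole gene do not check a deletion of part of it. The 12 libraries held 6130267 to 23501655 exonic and 3156973 to 10205497 intronic reads.

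MicroRNA sequences and sites are shown first, since Dicer is the deleted gene. The mature sequences, from RefSeq (GRCm38.p6), have the seed in capitals.
mmu-miR-21a-5p: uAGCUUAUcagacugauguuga
mmu-miR-181a-5p: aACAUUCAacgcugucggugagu
mmu-miR-221-3p: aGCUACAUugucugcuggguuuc
mmu-miR-222-3p: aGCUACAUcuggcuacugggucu
mmu-miR-29a-3p: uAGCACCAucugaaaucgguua
miR-221 and miR-222 share 1 seed. The longest 3′ UTR that GENCODE M21 annotates for each member was searched for the 7 bases that pair with each seed. A choice of sites in Reck, Timp3, Timp2 and Mmp2 follows, with the paired bases in capitals.
Reck, miR-21a: acagtttgaaATAAGCTattaatgtaa
Reck, miR-181a: ttggatacttTGAATGTtttacagttt
Timp3, miR-21a: tgagctttcaATAAGCTatagctttgt
Timp3, miR-221 and miR-222: aaaatcatttATGTAGCtgagacactt
Timp2, miR-21a: gtcttaaaaaATAAGCTgtcccaagga
Mmp2, miR-29a: tgggctgcccTGGTGCTccactcttct
In GRCm38 these lie at chr4:43944397-43944423, chr4:43944377-43944403, chr10:86348217-86348243 and chr10:86348275-86348301 on the plus strand, at chr11:118302330-118302356 on the minus strand and at chr8:92852913-92852939 on the plus strand, all in 3′ UTR. The Reck and Timp3 sites for miR-21a are each followed by an A, the extended form of the match, and the Timp2 site is not. Timp3 also held 2 sites for miR-181a, 1 of them followed by an A. Timp2 held 1 site for miR-181a, 1 for miR-24 and 1 for miR-17, and Mmp13 held 1 for miR-29a. Of 21020 genes with a 3′ UTR, 7.2% held the miR-21a site, 16.4% the miR-181a site, 9.5% the miR-221/222 site and 13.1% the miR-29a site. The miR-24 site was in 16.2% of them and the miR-17 site in 11.8%. No match to miR-27a was found in the 1213 bases of Mmp13 or to miR-24 in the 1328 bases of Mmp14, which says only that these letters are not there.

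The Timps stood above the enzymes, and Reck among the lowest, in exonic RPM per kilobase (RPKM here), the scale on which levels of genes can be compared. In Dicer WT cells the group means were 283 for Timp1, 85.0 for Timp3, 83.2 for Timp2, 41.0 for Mmp14, 23.7 for Mmp2, 15.8 for Mmp13 and 2.93 for Reck. Timp3 and Timp2 do not differ in that order beyond the spread of their libraries. In Dicer KO cells Timp1 was at 177, Timp3 at 61.2, Timp2 at 46.3, Mmp14 at 39.1, Mmp13 at 11.2, Reck at 7.59 and Mmp2 at 0.675, so that Mmp2 went from the fifth to the lowest of these 7 genes. Mmp3 and Mmp9 were near 0 in all 12 libraries, at most 0.118 and 0.0718.

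**Figure D1:**
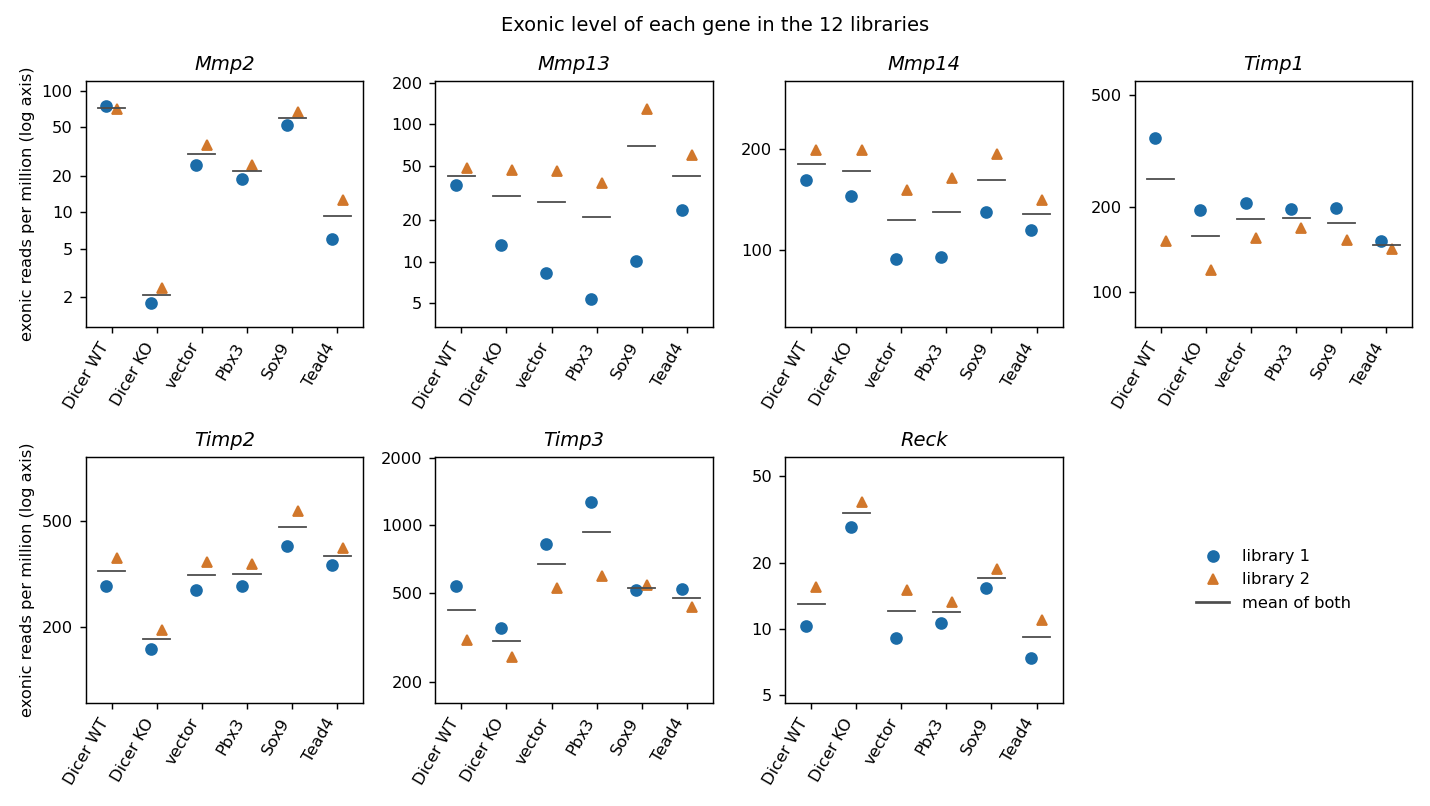
Exonic RPM (log axis) of 7 genes in the 12 libraries, circles for library 1, triangles for library 2 and a bar for their mean, with a scale of its own for each gene. Mmp2 lies at 1.79 and 2.37 in Dicer KO and at 75.6 and 70.5 in Dicer WT, and Mmp13 is higher in library 2 of every group.

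The enzyme Mmp2 was nearly lost from Dicer KO cells, its inhibitor Reck rose and its partner Timp2 fell. A test with limma on log2 of the normalised counts plus 1, the scale of all fold changes here, called 1 of the 7 members with enough reads higher in Dicer KO than in Dicer WT (Reck) and 2 lower (Mmp2 and Timp2), at an adjusted p under 0.05. Over all 10706 genes tested, 9.28% rose and 7.36% fell. With 7 genes, nothing particular to the group is drawn from these counts. The median log2 fold change was −0.58 over the 7 members and 0.01 over all genes.

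Mmp2, which cuts gelatin and basement membrane collagen, had 1656 and 1455 normalised exonic counts in Dicer WT and 38.5 and 50.6 in Dicer KO. Both KO libraries lay far below both WT libraries. It fell by 5.10 ± 0.22 on the log2 scale, which is 34.4-fold (limma adjusted p = 0.0018). Intronic reads of Mmp2 were 253 and 233 in WT and 9.0 and 13.8 in KO, and fell by 4.32 ± 0.31 (limma adjusted p = 0.00564). In intronic reads 2.86% of 10215 genes rose and 3.65% fell, and Mmp2 was the only member of 7 tested that passed. Mmp2 too reached the minimum mean of 50 through WT, since its Dicer KO means were below it in both kinds of reads. Other groups of WT origin spread widely for this gene. Mmp2 stood at 24.7 and 35.9 exonic RPM with the vector and at 18.9 and 24.4 with Pbx3. Sox9 cells had 52.2 and 66.8 RPM and Tead4 cells 5.98 and 12.6. By group mean the order ran from Dicer WT and Sox9 through vector and Pbx3 to Tead4 and Dicer KO, and Dicer KO was the lowest of the 6 with no overlap with any other group. Mmp2 was thus lower in WT cells with the empty vector than in untransfected WT cells, a contrast that was not tested here.

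Reck, a membrane protein that inhibits several of the enzymes, moved the other way. Its exonic counts were 226 and 322 in Dicer WT and 629 and 815 in Dicer KO, with no overlap, and it rose by 1.40 ± 0.25, or 2.65-fold (limma adjusted p = 0.0233). Its intronic counts were 359 and 490 in WT and 351 and 421 in KO, which overlap, with a log2 difference of −0.12 ± 0.21 (limma adjusted p = 0.75). The exonic call was lost without either Dicer KO library, at 1.59 with an adjusted p of 0.0583 without library 1 and 1.22 with 0.104 without library 2. Reck held 29.2 and 38.1 exonic RPM in Dicer KO and between 7.35 and 18.7 in the other 10 libraries, so its KO libraries were the highest of all 12.

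Timp2, which both inhibits and helps to activate Mmp2, had 6224 and 7499 exonic counts in Dicer WT and 3565 and 4176 in Dicer KO. The groups did not overlap, and Timp2 fell by 0.82 ± 0.16 (limma adjusted p = 0.0298). In intronic reads it had 1114 and 1239 in WT and 684 and 760 in KO, at −0.70 ± 0.14, just short of the threshold (limma adjusted p = 0.0551). Without Dicer KO library 1 the exonic value was −0.71 (adjusted p = 0.168) and without library 2 it was −0.94 (0.0888), so this call too rests on both KO libraries. Without WT library 1 the intronic value was −0.78.

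Mmp14, Timp1, Timp3 and Mmp13 did not pass. Mmp14, the membrane-type activator of Mmp2, had 3545 and 4094 exonic counts in Dicer WT and 3126 and 4237 in Dicer KO, a difference of −0.07 ± 0.19. The libraries of both groups interleave. Timp1 had 7671 and 3135 in WT and 4218 and 2555 in KO, at −0.58 ± 0.47 (limma adjusted p = 0.428). Timp3, the inhibitor that binds to matrix, had 11667 and 6329.8 in WT and 7511 and 5489.9 in KO, at −0.42 ± 0.33 (limma adjusted p = 0.410). For both genes the 2 WT libraries lie further apart than the group means. Without WT library 2, Timp1 stood at −1.22 and Timp3 at −0.86. Mmp13, the collagenase of cartilage and bone, had 794 and 989 in WT and 287 and 998 in KO, at −0.73 ± 0.57 (limma adjusted p = 0.418). Without KO library 2 it stood at −1.62. Intronic Mmp13 counts were 229 and 292 in WT and 62.0 and 178 in KO, at −1.29 ± 0.51 (limma adjusted p = 0.207). With a term for the library number, Timp1 and Timp3 passed in exonic reads (limma adjusted p = 0.00748 and 0.0181) and Mmp13, Timp2 and Timp3 in intronic reads (0.0176, 0.00402 and 0.00441). That number was set from these same libraries, so p-values of this fit, here and below, may be too small.

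Mmp9 and Mmp3 were too low to test. Over both libraries Mmp9 had 2 exonic reads in Dicer WT and 9 in Dicer KO, a ratio of 4.25 whose 95% exact interval of 0.879 to 40.4 covers counting error only and holds 1. It had 2 reads in vector, 1 in Tead4 and 0 in Pbx3 and Sox9, and no intronic read in any library. Mmp3 had 3 exonic reads in Dicer WT, 2 in Pbx3 and 0 in the other 4 groups. A count of 0 allows up to 3 reads, which is 0.0679 RPM in Dicer KO.

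**Figure D2:**
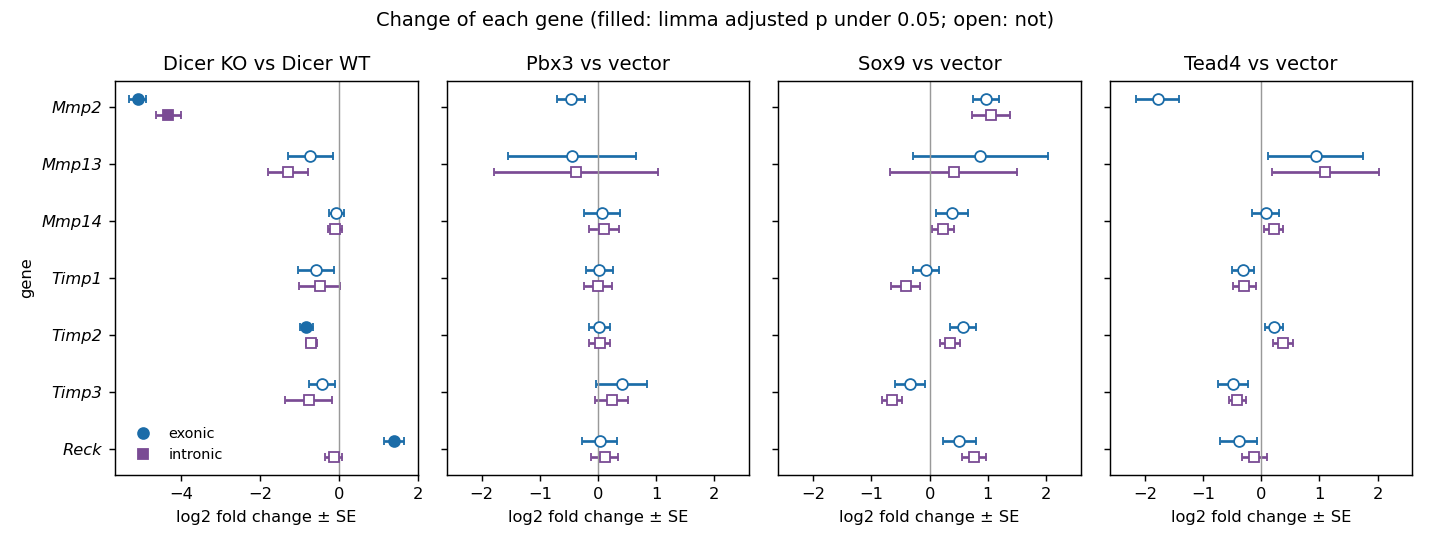
Log2 fold change with its standard error for 7 genes in the 4 comparisons, circles for exonic and squares for intronic reads, filled where the limma adjusted p is under 0.05, with a scale of its own for the first panel. The filled points are Mmp2 in both kinds of reads, Timp2 and Reck in exonic reads, all in Dicer KO, and Mmp2 at −1.78 in Tead4 is the farthest open point.

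Exonic reads come mostly from spliced RNA and intronic reads mostly from unspliced RNA. The difference between their changes was therefore tested per gene in Dicer KO against Dicer WT, with exonic and intronic libraries paired through their common numbering, which rests on the data and not on the labels. Among 9402 genes, the exonic change exceeded the intronic one for 5.16% and fell short of it for 1.38%. Reck was the 1 member of 7 in the first class and Mmp2 the 1 member in the second. Reck had 0.631 and 0.656 exonic counts for each intronic count in WT and 1.79 and 1.93 in KO. The excess was 1.53 ± 0.13 (limma adjusted p = 0.000735), rank 18 from the highest of 9402 genes, and it ranged from 1.47 to 1.58 with 1 library left out. Seed sites named above lie in Reck, Mmp2, Mmp13, Timp2 and Timp3 alike. Whether such sites bear on the change of Reck or of any other member was not tested. The ratio of Mmp2 was 6.55 and 6.25 in WT and 4.28 and 3.67 in KO, an exonic change lower than the intronic one by −0.78 ± 0.13 (limma adjusted p = 0.0142). The intronic counts behind the KO ratios are only 9.0 and 13.8, and with a minimum mean of 200 Mmp2 was not tested.

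**Figure D3:**
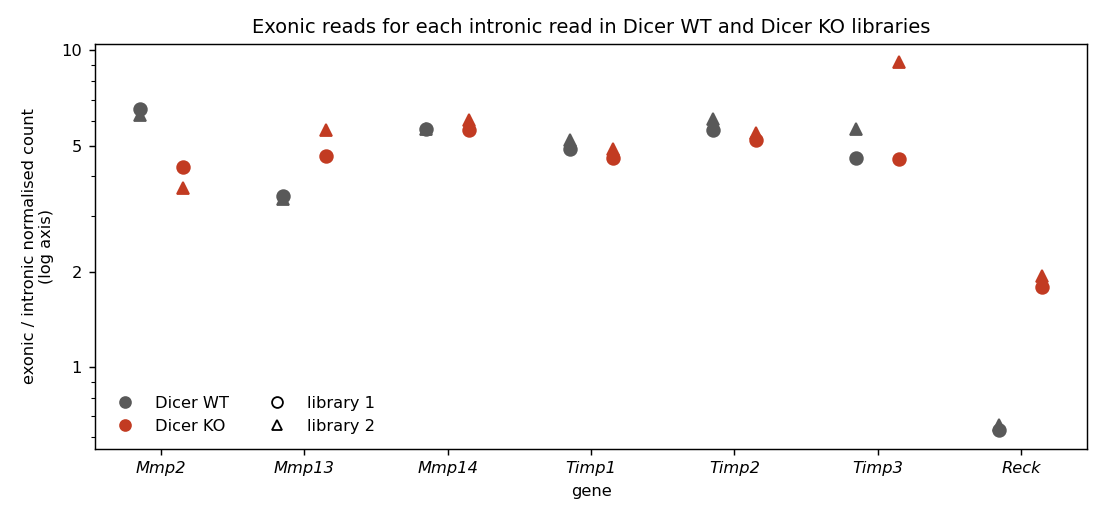
Exonic divided by intronic normalised count (log axis) for 7 genes in the Dicer WT (grey) and Dicer KO (red) libraries, circles for library 1 and triangles for library 2. Reck goes from 0.631 and 0.656 to 1.79 and 1.93, Mmp2 falls, and Timp3 in KO library 2 stands alone at 9.17.

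For the other members the exonic and intronic changes were closer. Mmp13 had a ratio of 3.46 and 3.39 in WT and 4.63 and 5.62 in KO, a difference of 0.57 ± 0.14 just short of the threshold (limma adjusted p = 0.0544). The difference was 0.71 without KO library 1, and it passed with a term for the library number (limma adjusted p = 0.00912). Timp3 had 4.58 and 5.64 in WT and 4.55 and 9.17 in KO. Its difference of 0.35 ± 0.27 did not pass (limma adjusted p = 0.531). It was 0.85 without KO library 1, 0.50 without WT library 2 and −0.16 without KO library 2. Timp2 stood at −0.12 ± 0.09, Timp1 at −0.09 ± 0.09 and Mmp14 at 0.04 ± 0.09. Fits with 1 library left in a group cannot measure the spread of that group, so only their sizes are given.

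The other genes of the pathway moved in both directions in Dicer KO cells. Over all genes 9.28% rose and 7.36% fell in exonic reads, and 2.86% rose and 3.65% fell in intronic reads. No list was tested as a set, here or in the paragraphs that follow. Of 18 other Mmps in the tables, 6 could be tested in exonic reads, 2 fell and 0 rose, with a median of −0.90. Mmp23 fell by 1.32 ± 0.26 in exonic and by 1.30 ± 0.21 in intronic reads (limma adjusted p = 0.0306 and 0.0339). Mmp16, a membrane-type enzyme related to Mmp14, fell by 6.29 ± 0.80 (limma adjusted p = 0.0106). It had 301 exonic reads in WT and 3 in KO, a ratio of 106 with a 95% exact counting interval of 36.0 to 518, and entered the test through WT alone. Mmp16 had 0 intronic reads in all groups, so no intronic change can be set beside this fall. Timp4 had too few reads to test.

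Genes that activate the proenzymes were split. Of 7 tested in the plasminogen system and among the proprotein convertases, 2 rose and 1 fell in exonic reads, with a median of 0.55. The urokinase gene Plau rose from a mean of 794 to 3745 normalised counts, by 2.23 ± 0.14 (limma adjusted p = 0.00337), and also in intronic reads, by 2.0 ± 0.21. Its receptor Plaur rose by 1.42 ± 0.29. The protease inhibitor Serpine2 fell in exonic and in intronic reads, with log2 changes of −4.08 ± 0.39 and −3.70 ± 0.50, and passed the minimum in intronic reads through WT alone. Exonic change exceeded intronic change for Plaur, by 0.85 ± 0.17 (limma adjusted p = 0.0228).

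Among 11 tested surface partners and clearance genes, 3 rose and 2 fell in exonic reads, with a median of −0.19. The integrin subunit genes Itgb3 and Itgav rose by 2.31 ± 0.25 and 0.81 ± 0.15, and the collagen receptor gene Ddr2 by 1.1 ± 0.14. The caveolin gene Cav1 fell by 0.97 ± 0.13, and so did the thrombospondin gene Thbs2, by 1.30 ± 0.29. Itgb3 encodes the partner of the αv integrin chain, a pair known to bind Mmp2 at the cell surface. Ddr2 rose and Cav1 fell in intronic reads too (1 and 1 of 10). Itgav passed the exonic against intronic comparison, at 0.57 ± 0.12.

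Of 6 ADAM sheddase genes, Adam15 rose by 0.82 ± 0.13 and Adam19 fell by 6.34 ± 0.57 in exonic reads, from a mean of 227 normalised counts to 2.01, with a list median of 0.43. Adam19 entered the test through WT alone in both kinds of reads. Both passed in intronic reads as well, at 0.83 ± 0.14 and −5.20 ± 0.44. Adam10 passed the exonic against intronic comparison, at 0.42 ± 0.10. Of 12 tested AP-1, ETS, NF-kB and Runx regulators of Mmp genes, Runx2, a regulator of bone genes and of Mmp13, fell by 0.85 ± 0.19 and 11 did not pass, with a median of 0.02. The list held 16 genes, and the Jun family genes Jun, Junb and Jund were among those with too few exonic reads to test. None of the 11 regulators tested in intronic reads passed limma.

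Over-expression of Pbx3, Sox9 or Tead4 called no member by limma at an adjusted p under 0.05 when the 2 libraries of a group were taken as plain replicates. These 3 comparisons share the vector libraries, so their values are given side by side only. In exonic reads limma called 0.0102% of genes for Pbx3, 0.547% for Sox9 and 0.143% for Tead4, and in intronic reads 0.0%, 1.99% and 1.61%. At an unadjusted limma p under 0.05 the exonic members were 0 for Pbx3, 2 for Sox9 (Mmp2 and Timp2) and 1 for Tead4 (Mmp2), where 2.37%, 13.0% and 15.9% of all genes passed. In intronic reads they were 0 for Pbx3, 3 for Sox9 (Mmp2, Timp3 and Reck) and 1 for Tead4 (Timp3), against 2.9%, 17.2% and 15.5% of all genes. In the authors' deposited table the adjusted p was under 0.05 for 1 member, Mmp2 in Tead4 cells, against 0.132%, 1.12% and 2.09% of the same genes in exonic reads and 0.175%, 1.91% and 1.72% in intronic reads.

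The absence of calls depended on how the 2 libraries of a group were treated. The library number was set from these same libraries, so p-values of a fit with a term for it may be too small. The share of all genes called in that fit was not computed. With this term the fold changes stayed as they were and members passed limma in all 3 exonic comparisons. They were Mmp2 and Timp3 in Pbx3 cells (adjusted p = 0.0462 and 0.011), Mmp2, Mmp13, Mmp14 and Timp2 in Sox9 cells (1.72e-07, 9.04e-05, 0.0327 and 0.00165), and Mmp2 and Mmp13 in Tead4 cells (0.00107 and 0.0407). In intronic reads that fit called Mmp2, Timp1, Timp3 and Reck in Sox9 cells (limma adjusted p = 0.00165, 0.0257, 4.55e-05 and 4.17e-05) and Mmp13, Timp2 and Timp3 in Tead4 cells (2.01e-05, 0.0336 and 0.0152).

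Mmp2 in Tead4 cells had the largest exonic difference of the members in the 3 factor comparisons. In Tead4 cells it had 58.3 and 120 normalised exonic counts against 247 and 341 in vector. The log2 difference was −1.78 ± 0.37 (limma adjusted p = 0.144), with an adjusted p of 0.00515 in the authors' deposited table. Without vector library 1 it was −2.01 and without vector library 2 −1.55. Without Tead4 library 1 it was −1.27 and without Tead4 library 2 −2.29. Fits with 1 library left in a group cannot measure the spread of that group, so only their sizes are given. Intronic counts were 19.7 and 27.2 against 31.9 and 50.1, too low to test. In Sox9 cells Mmp2 had 417 and 554 exonic counts against 210 and 287 in vector, at 0.97 ± 0.23 (limma adjusted p = 0.174). It stood at 1.19 without vector library 2 and 0.74 without vector library 1. Without Sox9 library 1 it was at 1.17 and without Sox9 library 2 at 0.76. Its intronic value in Sox9 cells was 1.06 ± 0.33 (limma adjusted p = 0.161). In Pbx3 cells it had 193 and 235 against 250 and 345, at −0.46 ± 0.24 (limma adjusted p = 1.0).

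With all 4 libraries and no library term, no inhibitor passed. Timp2 in Sox9 cells had 3228 and 4547 exonic counts against 2335 and 2820 in vector, at 0.58 ± 0.22 (limma adjusted p = 0.334). It was at 0.71 without vector library 2, and the fits without any 1 of the other 3 libraries ran from 0.33 to 0.83. Timp3 in Sox9 cells had 705 and 554 intronic counts against 1048 and 912, at −0.64 ± 0.18 (limma adjusted p = 0.118). Reck in Sox9 cells had 270 and 283 intronic counts against 135 and 197, at 0.76 ± 0.21 (limma adjusted p = 0.118) and at 1.03 without vector library 2. Its exonic counts were 122 and 155 against 77.1 and 120, at 0.51 ± 0.28. In Pbx3 cells Timp3 had 12922 and 5734 exonic counts against 8324 and 5068, which overlap, at 0.41 ± 0.44. Timp1 stayed between −0.31 and 0.03 in exonic reads of the 3 comparisons and Mmp14 between 0.07 and 0.38. Without vector library 2 the exonic values in Sox9 cells were 1.19 for Mmp2, 2.05 for Mmp13, 0.68 for Mmp14 and −0.31 for Timp1. There Timp2 stood at 0.71, Timp3 at −0.70 and Reck at 0.83. In Tead4 cells they were −1.55 for Mmp2, 2.13 for Mmp13, 0.38 for Mmp14 and −0.55 for Timp1. Timp2 stood at 0.37, Timp3 at −0.85 and Reck at −0.07. In intronic reads without vector library 2, Reck stood at 1.03 for Sox9, and Mmp13 at 2.65, Timp1 at −0.57 and Timp2 at 0.55 for Tead4. Such fits leave 1 library in a group, and the share of all genes that pass in them was not computed.

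The other pathway genes gave few calls with the factors. No gene of the 6 lists passed limma in exonic reads of any factor. In intronic reads Adam12 fell by 1.23 ± 0.22 in Tead4 cells (limma adjusted p = 0.0457), 1 of 6 sheddases.

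Among the members tested, Mmp13 varied most between the 2 libraries of a group in exonic reads, except in Dicer WT. Across genes, the libraries of all 6 groups differed along 1 shared direction, with correlations of these differences from 0.326 to 0.806 over 10295 genes in exonic reads, and library 1 and library 2 are numbered along it. Mmp13 was higher in library 2 in 6 of 6 groups, by 1.32-fold in Dicer WT, 3.50-fold in Dicer KO, 5.53-fold in vector, 6.95-fold in Pbx3, 12.7-fold in Sox9 and 2.52-fold in Tead4. Its exonic RPM in Sox9 cells, 10.1 and 129, span nearly the whole range of the 12 libraries. The fit for Sox9 gave 0.87 ± 1.16 in exonic reads and that for Tead4 0.93 ± 0.81. Without vector library 2 these values were 2.05 and 2.13. Without Sox9 library 1 the first was 2.72 and without Sox9 library 2 it was −0.99. Without vector library 1 the values were −0.31 in Sox9 and −0.26 in Tead4 cells. Fits with 1 library left in a group cannot measure the spread of that group, so only their sizes are given.

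Timp1, the inhibitor induced in many injured tissues, went the other way and was higher in library 1 in 6 of 6 groups, from 1.07-fold in Tead4 to 2.31-fold in Dicer WT. Mmp14, Timp2 and Reck were higher in library 2 in 6 of 6 groups, Mmp2 in 5 of 6, and Timp3 was higher in library 1 in 5 of 6. Intronic reads gave the same counts for all 7 genes. These counts use the same libraries that set the numbering and are a description. What the libraries share in this direction is not given in the labels.

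Compared within library 1 and within library 2, the changes of Mmp2 in Dicer KO cells were −5.39 and −4.82, those of Timp2 −0.80 and −0.84 and those of Reck 1.47 and 1.34. The values for Mmp2 were 0.99 and 0.95 in Sox9 cells and −2.06 and −1.50 in Tead4 cells. Timp1 in Dicer KO cells stood at −0.86 and −0.29, and Mmp13 at −1.46 and 0.01.

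**Figure D4:**
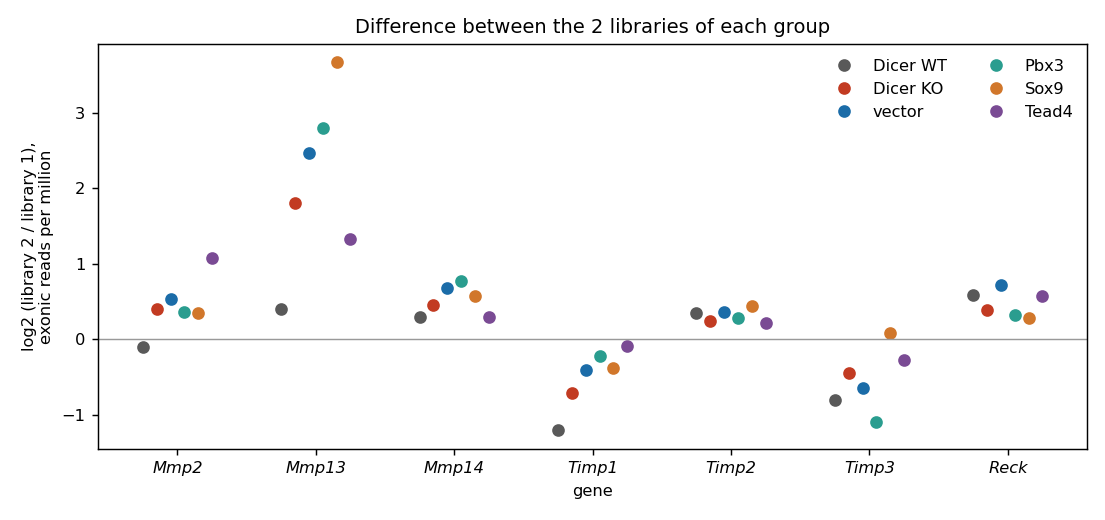
Log2 ratio of library 2 to library 1 in exonic RPM for 7 genes, 1 point for each of the 6 groups. All 6 points of Mmp13, Mmp14, Timp2 and Reck lie above 0 and all 6 of Timp1 below, with Mmp13 in Sox9 cells the highest at 12.7-fold.

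Promoters of Mmp13 and Mmp3 are shown because these 2 genes of the chromosome 9 cluster share 2 motifs and differ in level. The 100 bases before each start, from RefSeq (GRCm38.p6), have the matches to an AP-1 motif and to a TATA motif in capitals.
Mmp13: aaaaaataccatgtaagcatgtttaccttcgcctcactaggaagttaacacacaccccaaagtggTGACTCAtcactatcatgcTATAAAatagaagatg
Mmp3: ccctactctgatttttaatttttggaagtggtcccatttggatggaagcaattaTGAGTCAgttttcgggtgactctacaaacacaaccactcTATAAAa
They lie at chr9:7272414-7272513 and chr9:7445722-7445821, both on the plus strand. Mmp13 was at 2.0 to 48.2 RPKM over the 12 libraries and Mmp3 at 0 to 0.118. Of the 7 members with a promoter of 300 bases in the table (Mmp13, Mmp3, Mmp14, Timp1, Timp2, Timp3 and Reck), these 2 held the AP-1 motif TGANTCA, searched on both strands like the others, against 7.8% of 32851 promoters of that length. The same 2 held the TATA motif, the letters TATAAA, against 13.6% of them. The TEAD motif GGAATG was in 2, Reck and Timp1, against 14.7% of all promoters. The SOX motifs ACAATG or ACAAAG were in the same 2, against 28.6%. The PBX motif TGATTNAT was in Mmp3 alone, against 3.2%. A match is a description of letters and no site of binding.

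Likeness of pattern was read over the 12 libraries for 9585 genes with a mean of at least 50 in all 4 exonic tables. Pearson's r of log2 of RPM plus 1 was highest with Mmp2 for Als2cl (0.98) and Fst, which encodes follistatin (0.98). For Reck it was highest with Igf1, a growth factor, and Gys1 (both 0.97), and for Timp2 with Ephb4 (0.98) and Lima1 (0.97). Mmp14 was most like Mtch1 and Maged2 (both 0.97), and Timp3 most like Cdv3 and Zfp599 (both 0.97). Mmp13 was nearest to Sh3bgrl (0.95) and Bphl (0.92) and Timp1 to Gtpbp10 and Tuba1b (both 0.86). Among the members themselves r was highest for Mmp13 with Mmp14 (0.82) and Mmp2 with Timp2 (0.72), and lowest for Mmp14 with Timp3 (−0.76) and Timp3 with Reck (−0.66). These points share 6 groups and the direction between libraries, and the values are a description.

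Annotated genes overlap all 4 inhibitors. Timp2 contains Cep295nl, a coding gene, and Reck contains Gm27265, a non-coding RNA gene, each on the same strand in GENCODE M21. Neither was matched to a row of the tables, so their part in the reads of Timp2 and Reck was not tested. Timp1 lies inside Syn1 and Timp3 inside Syn3, each on the opposite strand in GENCODE M21, and the use of strand in counting is not given in the sources used here. Over all 12 libraries Syn1 had 153 exonic and 309 intronic reads and Syn3 had 36 and 616. The lowest exonic level of any library was 119 RPM for Timp1 and 257 RPM for Timp3.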

How the data were processed

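Ribosomal RNA was depleted and stranded single-end libraries were made, per the labels' protocols. Bowtie2, mm9 and DESeq 1.10.1 are named in the submitters' processing notes. The signal columns hold exonic or intronic read counts that the authors divided by size factors and averaged over each group, per the file headers. The fold change is the ratio of these means, its log2 value carries no pseudocount, and the p-value columns are from the authors' deposited test. For gene annotation and shared reads, the method is not given in the sources used here.

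The labels list 1 sample per group, but each mean could be written in 1 way as a sum of 2 whole read numbers with fixed weights, so whole reads of 2 libraries were recovered for 100% of genes (tolerance 1e-09), and the vector reads from 3 tables differed for 0 genes. Recovery and test were tested on simulated data. Columns left without a sample numbered 0. limma 3.58.1 (R 4.3.3) with a mean-variance trend was run on log2 of normalised counts plus 1, 2 libraries against 2, for genes with a mean of at least 50 over both groups, with Benjamini-Hochberg adjustment over all of them and a threshold of 0.05. Its p-values rest only on how far these libraries lie apart, and that may be technical. Intervals and floors (3 reads) cover counting error only. Lengths are merged exons of coding transcripts of GENCODE M21. All 9 members are named, and of each pathway list those that passed limma, up to 10 by size, plus the 2 genes most like each member. The members and lists were chosen with earlier results of these data known. Alternatives were the pseudocount, the minimum, scaling, voom on recovered reads, a robust fit, the authors' p, a library order term and leaving out each library. One gene of the activation list is not reported here.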

Additional observations from a re-analysis of the deposited data

How the results depend on the processing

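No paired analysis was possible because the labels give no replicate numbers to share between groups. The library numbers come from the data themselves, and a term for them in place of pairing gave 5 members called in exonic and 4 in intronic reads of Dicer KO, 2, 4 and 2 in exonic reads of Pbx3, Sox9 and Tead4, and 4 and 3 in intronic reads of Sox9 and Tead4. The share of all genes called in that fit was not computed, and its p-values may be too small. The authors' adjusted p called 1 for exonic Tead4. A minimum mean of 200 left 0 members called in intronic reads of Dicer KO and 1 in the exonic against intronic comparison, since Mmp2 was then not tested. With 1 library left out, the members called changed with the library in Dicer KO, Sox9 and Tead4, in both kinds of reads. They changed in the exonic against intronic comparison too. These calls are not counted here, since the lone library is assumed to vary like the others and no share of all genes was computed. Values of single genes whose sign turned follow, and no value with the turned sign was called. Reck in exonic Pbx3 was −0.010 with voom and −0.0032 in the authors' table, Timp1 in intronic Pbx3 0.013, 0.0052 and 0.011 with total, upper-quartile and voom scaling, and Mmp14 exonic against intronic −0.0024 and −0.025 with total and upper-quartile scaling. With 1 library left out, exonic Dicer KO values ran from −1.62 to 0.17 for Mmp13, −0.29 to 0.15 for Mmp14, −1.22 to 0.067 for Timp1 and −0.86 to 0.021 for Timp3. Exonic Pbx3 values ran from −1.80 to 0.89 for Mmp13, −0.27 to 0.42 for Mmp14, −0.22 to 0.27 for Timp1, −0.12 to 0.16 for Timp2, −0.18 to 0.99 for Timp3 and −0.29 to 0.35 for Reck. Exonic Sox9 values ran from −0.99 to 2.72 for Mmp13, −0.31 to 0.19 for Timp1 and −0.70 to 0.021 for Timp3, and exonic Tead4 values from −0.26 to 2.13 for Mmp13 and −0.23 to 0.38 for Mmp14. Intronic Dicer KO values ran from −0.27 to 0.061 for Mmp14, −1.18 to 0.21 for Timp1 and −0.35 to 0.10 for Reck. Intronic Pbx3 values ran from −2.24 to 1.47 for Mmp13, −0.23 to 0.45 for Mmp14, −0.28 to 0.28 for Timp1, −0.15 to 0.20 for Timp2, −0.17 to 0.64 for Timp3 and −0.17 to 0.40 for Reck. Mmp13 ran from −1.13 to 1.96 in intronic Sox9 and from −0.44 to 2.65 in intronic Tead4, and Reck from −0.40 to 0.17 in intronic Tead4. Exonic against intronic values ran from −0.014 to 0.093 for Mmp14 and −0.16 to 0.85 for Timp3. Apart from fewer libraries or genes in a fit, the cause was not tested. Reads were too few to test Mmp3 and Mmp9 in any comparison, and intronic Mmp2 with Pbx3 and Tead4.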
